A study of Saccharomyces cerevisiae with 24 samples.

Results

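The genes described here encode proteins of the mitochondrial ribosome of the budding yeast Saccharomyces cerevisiae. They were taken by name: every gene whose standard symbol is MRPL, MRPS, MRP or RSM followed by a number, and IMG1 and IMG2. This gave 69 of the 7036 entries of the count tables, with 34 MRPL symbols, 9 MRPS symbols, 11 RSM symbols and 13 MRP symbols beside the IMG pair. By the ribosomal protein names that the RefSeq gene table of the R64 assembly lists as synonyms, 40 belong to the large subunit and 27 to the small subunit. The other 2 carry no such name: MRP8, which is not a known ribosomal protein despite its symbol, and RSM22, a methyltransferase-like protein linked to assembly of the small subunit. The names also place 27 proteins in families shared by all ribosomes, 15 in families shared with bacteria and 25 in families of mitochondrial ribosomes. The genes lie on 14 nuclear chromosomes, with 12 on chromosome IV and 10 on chromosome XIV, and span 213 to 1887 bp with a median of 660 bp.

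Mitochondrial ribosomes translate the small set of mRNAs made from the mitochondrial genome, nearly all of which encode core subunits of the respiratory chain and of the ATP synthase. In yeast the mitochondrial rRNAs and the ribosomal protein Var1 are encoded in that genome, while the other ribosomal proteins are encoded in the nucleus, made in the cytosol and imported. Their nuclear mRNAs are known to vary together with growth and carbon source, and many are bound by the RNA-binding protein Puf3.

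Abundance of total RNA was read by sequencing in 4 groups of 2 libraries, all in strain BY4741: rph1 deletion with rapamycin, wild type with rapamycin, untreated rph1 deletion and untreated wild type. BY4741 is a haploid laboratory strain of mating type a with deletions at HIS3, LEU2, MET17 and URA3, and carries a HAP1 gene, for a heme-responsive activator, that is interrupted by a transposon. Rapamycin inhibits the TORC1 kinase, which couples growth to nutrients, and Rph1 is a DNA-binding protein with a histone demethylase domain. No label states the rapamycin dose, the time of exposure, the medium or how many deletion clones were used. The study also holds chromatin immunoprecipitation (ChIP) of FLAG-tagged Rph1 from cells labelled wild type, with and without rapamycin, for which the authors deposited 1 gene list per condition.

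The 8 libraries held 18037199 to 24769193 counted reads, and all 69 genes passed the filter on low counts that left 6169 genes for testing. RPH1 had 82 and 45 reads in the deletion with rapamycin, against 1695 and 2107 in the wild type with rapamycin. Untreated, it had 30 and 43 reads in the deletion, against 1057 and 1850 in the wild type, so the libraries matched their genotype labels. LEU2 had 0 reads throughout, and URA3 and MET17 at most 1. The mating type a markers MFA1, MFA2, STE2, BAR1 and AGA2 summed to 1572 to 2367 CPM (read counts scaled to a common library size) over the libraries, and the pheromone gene MF(ALPHA)1 of the other mating type had 3 to 12 reads. The 4 alpha markers MF(ALPHA)1, MF(ALPHA)2, STE3 and SAG1 summed to 115 and 115 CPM in the deletion with rapamycin, 73.5 and 87.7 in the wild type with rapamycin, 60.4 and 66.9 in the untreated deletion, and 49.1 and 56.9 in the untreated wild type. Among them STE3, a pheromone receptor gene of alpha cells, rose in the deletion by 1.85 ± 0.14 with rapamycin and 2.23 ± 0.16 untreated in log2, from at most 360 reads a library. SAG1 rose with rapamycin by 0.41 ± 0.12 and had -0.03 ± 0.12 untreated, MF(ALPHA)2 had 0.18 ± 0.18 and 0.42 ± 0.18 without passing the test, and MF(ALPHA)1 was too low to be tested. Of the a markers, AGA2 rose in the deletion by 0.47 ± 0.09 with rapamycin and 1.04 ± 0.09 untreated, MFA2 fell by 0.76 ± 0.14 untreated, and no other comparison of an a marker between the genotypes passed. The part of these differences between the genotypes in the results below was not tested. All 31 entries of the mitochondrial genome, VAR1 and both mitochondrial rRNAs included, were at 0 reads in all 8 libraries, so the products of that genome could not be set beside the nuclear genes.

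Most mitochondrial ribosomal protein genes were moderately expressed. Averaged over the 8 libraries, their median level was 105 CPM per kilobase of gene span, against 53.7 for all protein-coding genes tested, and 65 of the 69 lay above that value. Level per kilobase fell with span over the protein-coding genes (Spearman's rho = -0.30). Of those 5753 genes, 4531 were at or above the median span of the 69. Genes of like span were not compared in level. Of the 69 genes, 59 lay between 50 and 200 CPM per kilobase. The highest level was that of MRP8, at 441 CPM per kilobase, followed by the small subunit genes MRPS12 at 276, whose protein belongs to the decoding centre family S12, and MRPS16 at 259. MRPL39, the shortest of the 69 genes, stood at 239 and RSM19 at 214 CPM per kilobase. At the low end were MRPL38 at 1.75, MRPL51 at 7.99, RSM22 at 34.9, MRPL4 at 41.0 and MRP13 at 59.3 CPM per kilobase.

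The levels of the lowest genes are uncertain. MRPL51 shares bases with the reading frame YPR099C on the other strand, and the count tables also hold YKL169C, a dubious reading frame known to overlap MRPL38. YKL169C had at most 7 reads and YPR099C at most 6 in any library. MRPL38 itself had 6 and 23 reads in the deletion with rapamycin, 15 and 6 in the wild type with rapamycin, 20 and 22 in the untreated deletion, and 15 and 12 in the untreated wild type. The genotypes overlapped with rapamycin. Untreated, the deletion lay above the wild type without passing the test (log2 fold change 0.56 ± 0.57, adjusted p = 0.579). The difference of 0.90 in log2(CPM + 0.5) between the deletion libraries with rapamycin was the largest between replicates of any of the 69 genes. MRPL19 and MRP4 also overlap a reading frame on the other strand, YNL184C and YHL005C, which had at most 4 and 12 reads. How reads in shared bases were counted, and whether strand was used, is not given in the sources used here, so reads of such partners cannot be told apart.

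**Figure D1:**
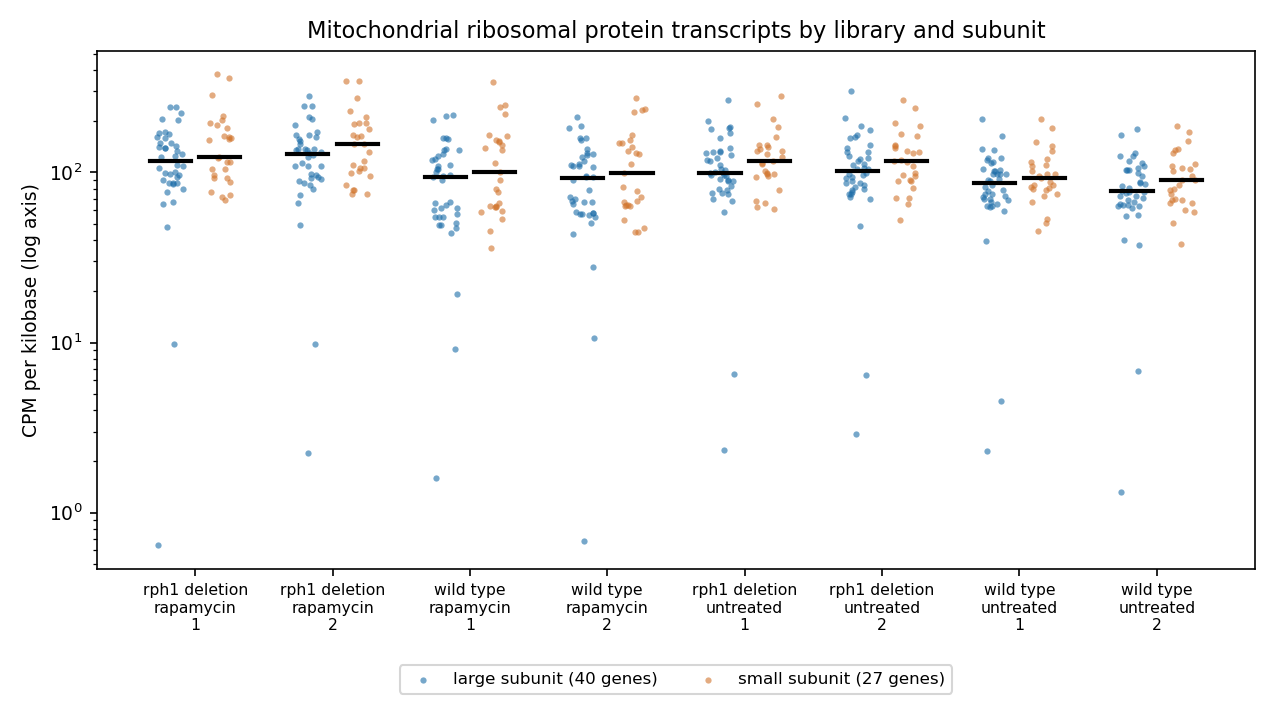
Level of each mitochondrial ribosomal protein gene in each of the 8 libraries, as CPM per kilobase of gene span on a log axis, with 40 large subunit genes in blue and 27 small subunit genes in orange; each point is 1 gene and the black bars are medians. Both subunits had their highest medians in the rph1 deletion with rapamycin, and the lowest pair of points in each library is MRPL38 and MRPL51.

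Both subunits followed the same order across the groups. The 40 large subunit genes had median levels of 117 and 129 CPM per kilobase in the deletion with rapamycin, 94.4 and 92.3 in the wild type with rapamycin, 99.9 and 102 in the untreated deletion, and 86.8 and 77.8 in the untreated wild type. The 27 small subunit genes stood at 123 and 146, 100.3 and 99.6, 116 and 117, and 92.3 and 89.9 CPM per kilobase in the same groups and order. Within each subunit no library of the deletion overlapped a wild-type library of the same treatment. The summed CPM of the large subunit was 1.11 to 1.21 times that of the small subunit in every library.

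As a share of all counted reads, with no scaling, the 69 genes took 0.672% and 0.721% in the deletion with rapamycin, against 0.523% and 0.516% in the wild type with rapamycin. They took 0.467% and 0.468% in the untreated deletion, against 0.361% and 0.341% in the untreated wild type. The deletion was thus above the wild type within each treatment on either measure. The order of the untreated deletion and the rapamycin-treated wild type depended on the scale, since the untreated deletion was higher in scaled CPM and lower as a share of reads. In bulk RNA, a change in the makeup of the culture and a change in the RNA of each cell cannot be told apart, nor can fewer cells of a type and less RNA per cell.

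Gene by gene, the mean CPM was highest in the deletion with rapamycin for 48 of the 69 genes, in the untreated deletion for 17, in the wild type with rapamycin for 4 and in the untreated wild type for none. It was lowest in the untreated wild type for 38 genes and in the wild type with rapamycin for 30. RSM18 alone had its lowest mean in the untreated deletion. These counts use scaled CPM and were not made over all genes tested or on plain library totals. As a share of all reads, the 69 genes together were higher in the treated wild type than in either untreated group.

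In untreated cells, deletion of RPH1 went with higher mRNA of mitochondrial ribosomal proteins. By edgeR's quasi-likelihood test with Benjamini-Hochberg adjustment over all 6169 genes, called under 0.05, 23 of the 69 genes were higher in the deletion and none was lower, where 4.88% of all genes tested were called higher and 2.53% lower. The median log2 fold change, deletion over wild type, was 0.33 for the 69 genes and -0.05 for all genes. No gene was lower by DESeq2 or at an unadjusted p under 0.05 either. The log2 fold change was positive for 68 of the 69, with RSM18 at -0.08, against 2605 of the 6169 genes tested. Of the large subunit 15 of 40 rose with a median of 0.34, and of the small subunit 8 of 27 rose with a median of 0.33. Both deletion libraries lay above both wild-type libraries for 61 of the 69 genes, where 22.6% of all genes did so, and below for none, where 30.3% of all genes did so.

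Among large subunit genes in untreated cells, IMG1, needed for maintenance of the mitochondrial genome and coding for a protein of family L19, had 87.3 and 81.7 CPM in the deletion, against 58.3 and 54.5 CPM in the wild type. It lies on chromosome III at 209914 to 210423 on the minus strand (R64). The deletion libraries were well above the wild-type libraries, with a log2 fold change of 0.58 ± 0.09 (SE; adjusted p = 0.0130). MRPL50 had 75.9 and 70.2 CPM in the deletion, against 50.9 and 49.3 CPM in the wild type, again without overlap (0.54 ± 0.08, adjusted p = 0.0101). MRPL19, a protein of the L11 family at the factor-binding stalk base, MRPL39, of family L33, and MRPL20 rose by 0.59 ± 0.12, 0.56 ± 0.12 and 0.53 ± 0.12 in log2. The other large subunit genes called higher were MRPL6, MRPL7, MRPL8, MRPL11, MRPL13, MRPL31, MRPL36, MRPL37, MRPL40 and MRPL49.

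The largest changes that passed the test in untreated cells were in the small subunit, in MRP1 and MRPS16. MRP1 (chromosome IV, 1169178 to 1170143, plus strand), whose protein resembles manganese superoxide dismutase in fold, had 128 and 126 CPM in the deletion, against 75.8 and 77.3 CPM in the wild type. MRPS16 (chromosome XVI, 528985 to 529350, minus strand), of the bacterial S16 family, had 102 and 97.8 CPM in the deletion, against 66.5 and 63.3 CPM in the wild type. MRP4 (chromosome VIII, 99219 to 100403, plus strand), of the universal S2 family, had 172 and 164 CPM in the deletion, against 109 and 114 CPM in the wild type. For these 3 genes the deletion libraries stood far above the wild-type libraries relative to the gap between replicates. The log2 fold changes were 0.73 ± 0.08 for MRP1 (adjusted p = 0.00384), 0.63 ± 0.08 for MRPS16 (adjusted p = 0.00688) and 0.59 ± 0.08 for MRP4 (adjusted p = 0.00869). MRPS18, of the S11 family, and RSM19, of the S19 family, each rose by 0.56 with an SE of 0.07 and 0.09. The other small subunit genes called higher were MRPS9, MRP17 and RSM25.

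The number of these calls depended on which libraries entered the fit, as did the number over all genes tested. Without replicate 1 of the untreated deletion 1 of the 69 genes was called, which was MRP1, and 0.868% of all genes were called in either direction. Without its replicate 2 there were 7, with 2.39% of all genes called, and without replicate 2 of the untreated wild type 10, with 3.83%. With only the 4 untreated libraries in the fit none of the 69 was called, when 14 genes, or 0.23%, were called in all. The median log2 fold change stayed between 0.31 and 0.39 when any library was left out, and was 0.37 in the 4 libraries alone, with 68 of the 69 genes positive.

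**Figure D2:**
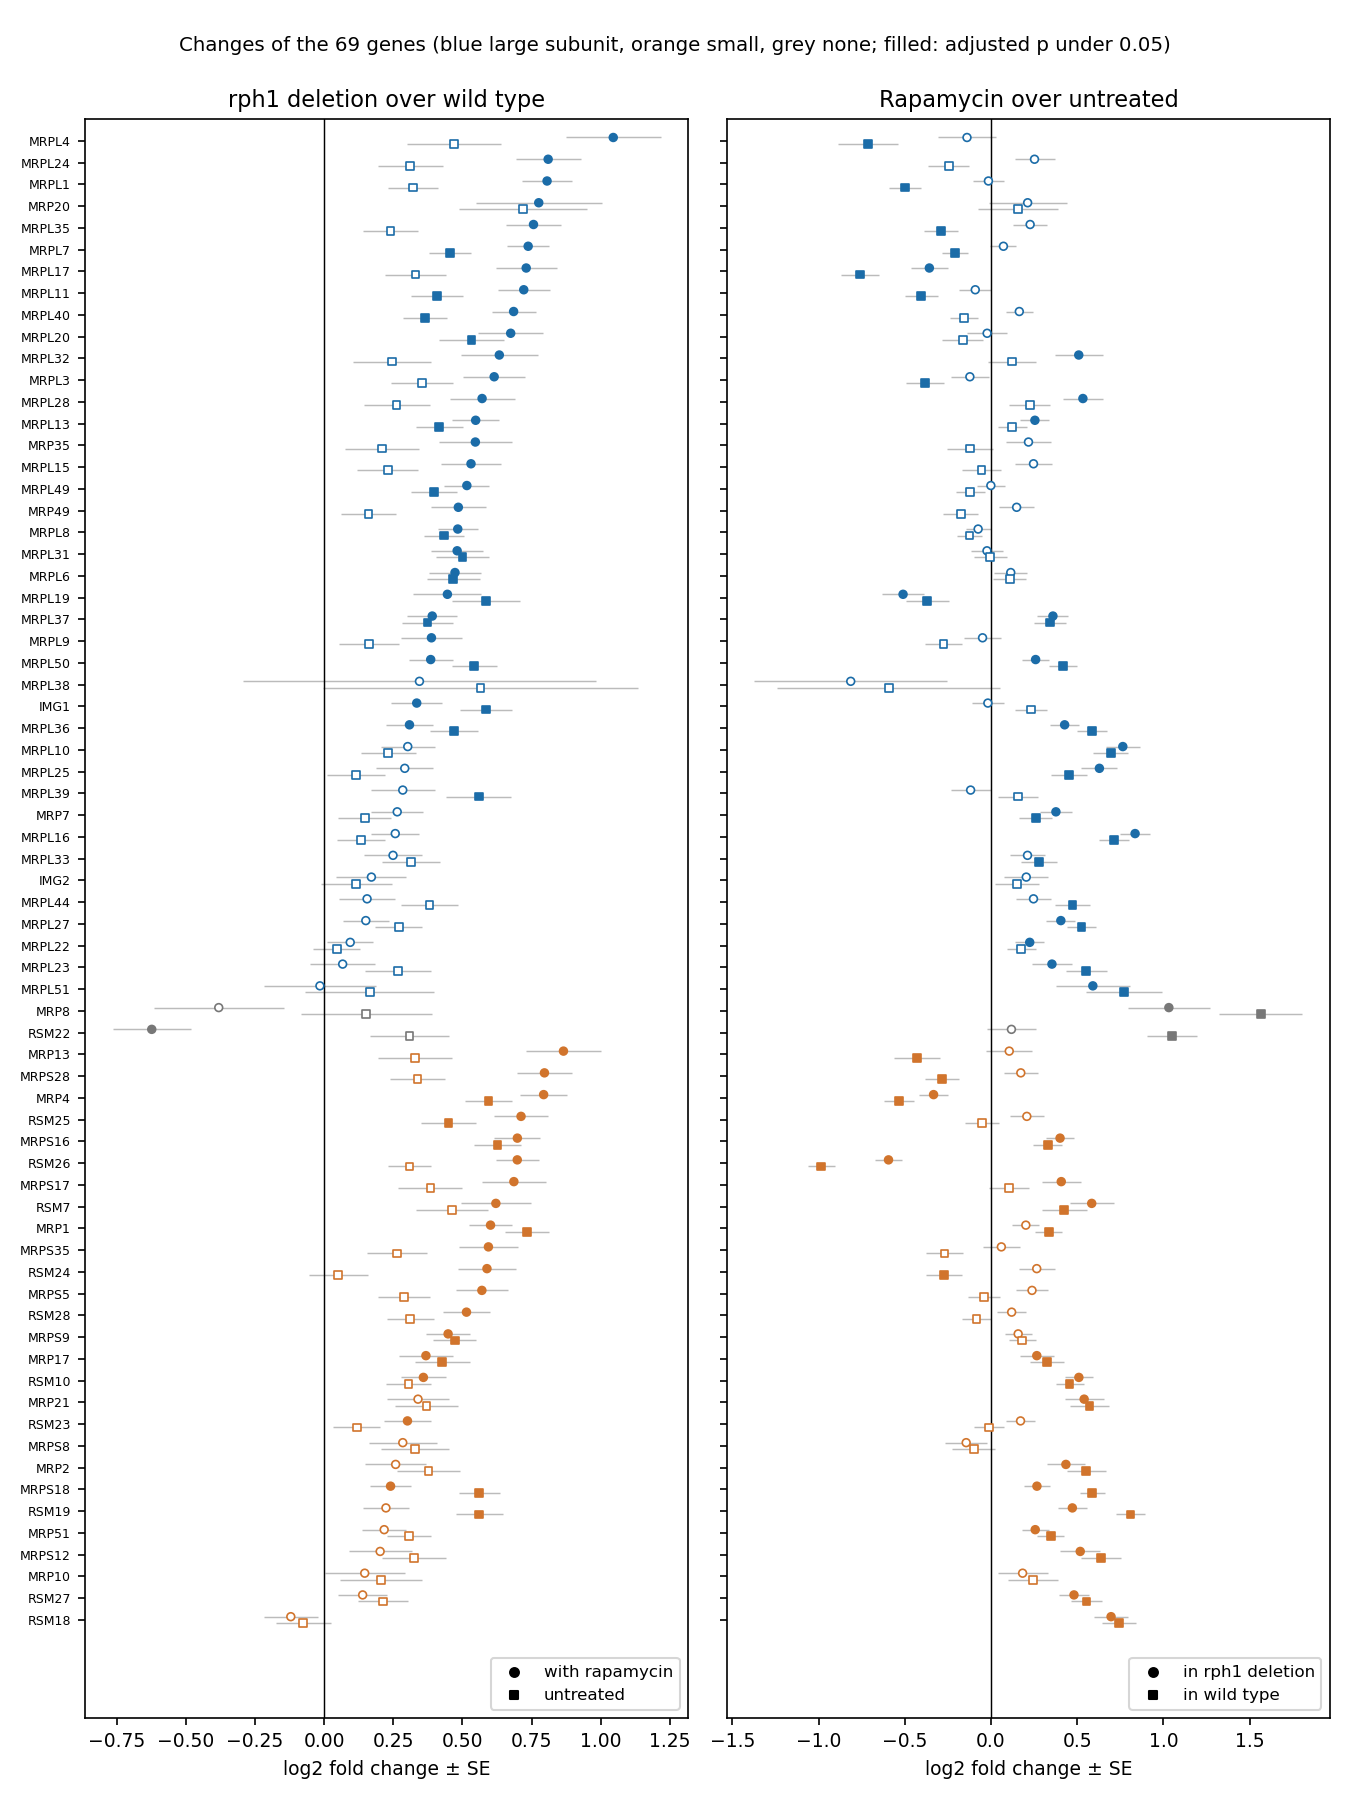
Log2 fold change of each of the 69 genes, rph1 deletion over wild type on the left (circles with rapamycin, squares untreated) and rapamycin over untreated on the right (circles in the deletion, squares in the wild type); large subunit genes are blue, small subunit genes orange and the others grey, bars are the standard error, and filled symbols passed an adjusted p of 0.05. On the left nearly all points lie to the right of 0, with RSM22 at -0.62 with rapamycin as the lowest, while on the right the points lie on both sides of 0.

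With rapamycin more of these genes differed between the genotypes. Of the 69 genes, 45 were higher in the deletion and 1 lower by the same test, where 14.4% of all genes tested were called higher and 13.5% lower. The median log2 fold change was 0.45 for the 69 genes and 0.00 for all genes, and 65 of the 69 values were positive. The large subunit had 27 of 40 genes higher with a median of 0.48, and the small subunit 18 of 27 with a median of 0.45. By family, 17 of 27 universal, 10 of 15 bacterial and 18 of 25 mitochondrial members were higher, and no member with a ribosomal protein name was called lower. Both deletion libraries lay above both wild-type libraries for 61 genes and below for 3, where 34.4% and 34.3% of all genes did so. Without replicate 1 of the deletion with rapamycin 29 genes were called higher, with 10.4% of all genes called in either direction, and without its replicate 2 also 29, with 14.4%; no gene was called lower without replicate 1 of the deletion or replicate 2 of the wild type with rapamycin.

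Among large subunit genes with rapamycin, MRPL4 (chromosome XII, 1014491 to 1015450, plus strand), of the L29 family at the exit of the peptide tunnel, had 46.0 and 47.0 CPM in the deletion, against 18.5 and 26.6 CPM in the wild type. The wild-type libraries differed more from each other than the deletion libraries did, but lay below both of them. The log2 fold change was 1.04 ± 0.17 (adjusted p = 0.00429), the largest of the 69. MRPL1 (chromosome IV, 682724 to 683581, minus strand), of the L1 stalk family, had 84.2 and 82.7 CPM in the deletion, against 46.7 and 48.8 CPM in the wild type (0.81 ± 0.09, adjusted p = 0.00137). MRPL35 (chromosome IV, 1110589 to 1111692, plus strand), of a mitochondrial family, had 94.6 and 93.8 CPM in the deletion, against 55.5 and 56.0 CPM in the wild type (0.76 ± 0.10, adjusted p = 0.00203). Both pairs of replicates of MRPL1 and MRPL35 were close, with the genotypes well apart.

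MRPL24, of family L28, MRPL7, of family L5, and MRPL17 rose in the deletion with rapamycin by 0.81 ± 0.12, 0.74 ± 0.08 and 0.73 ± 0.11 in log2. MRP20, of family L23 at the tunnel exit, had 76.3 and 73.8 CPM in the deletion with rapamycin, against 34.9 and 52.9 CPM in the wild type with rapamycin. Its wild-type libraries were far apart, the log2 fold change of 0.78 ± 0.23 had an adjusted p of 0.0383, and the call was lost without either deletion library (adjusted p = 0.138 and 0.104) or without replicate 1 of the wild type (adjusted p = 0.169).

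Among small subunit genes with rapamycin, MRP13 (chromosome VII, 647123 to 648142, minus strand) had 69.9 and 80.3 CPM in the deletion, against 36.8 and 45.7 CPM in the wild type (0.86 ± 0.13, adjusted p = 0.00337). MRPS28 (chromosome IV, 1146319 to 1147179, plus strand), of the S15 family, had 90.9 and 92.0 CPM in the deletion, against 50.2 and 55.1 CPM in the wild type (0.80 ± 0.10, adjusted p = 0.00168). MRP4 had 137 and 131 CPM in the deletion, against 74.0 and 80.2 CPM in the wild type (0.79 ± 0.09, adjusted p = 0.00115). In these 3 genes the deletion libraries lay above the wild-type libraries by more than the gap between replicates.

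The gene called lower was RSM22 (chromosome XI, 159456 to 161342, minus strand), the assembly factor, with 57.4 and 67.9 CPM in the deletion with rapamycin, against 90.1 and 103 CPM in the wild type with rapamycin. Its log2 fold change was -0.62 ± 0.14 (adjusted p = 0.0145), and the call was lost without replicate 1 of the deletion (-0.48, adjusted p = 0.114) or replicate 2 of the wild type (-0.51, adjusted p = 0.0877). MRP8, the other gene without a subunit, did not pass the test, with 373 and 347 CPM in the deletion, against 527 and 411 CPM in the wild type (-0.38 ± 0.24, adjusted p = 0.264).

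The genes that did not pass the test with rapamycin, beside MRP8, were MRPL10, MRPL16, MRPL22, MRPL23, MRPL25, MRPL27, MRPL33, MRPL38, MRPL39, MRPL44, MRPL51, MRP7 and IMG2 of the large subunit, and MRPS8, MRPS12, MRP2, MRP10, MRP21, MRP51, RSM18, RSM19 and RSM27 of the small subunit. RSM18, of family S18, had 89.1 and 95.9 CPM in the deletion, against 104 and 97.2 CPM in the wild type, with a log2 fold change of -0.12 ± 0.10.

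The untreated and the rapamycin comparison of the genotypes share no library. Of the 23 genes called higher in the untreated deletion, 21 were also called higher with rapamycin, which is 91.3% of those 23 and 46.7% of the 45 called with rapamycin; over all genes tested 99 were shared, 32.9% of 301 and 11.1% of 891. The 2 genes called higher only without rapamycin by this threshold were MRPL39 and RSM19, with log2 fold changes of 0.28 and 0.22 with rapamycin. In all, 65 genes had positive values in both comparisons and 42 had the larger value with rapamycin. The larger value under 1 condition is not a test of the difference, which is the interaction given further on.

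**Figure D3:**
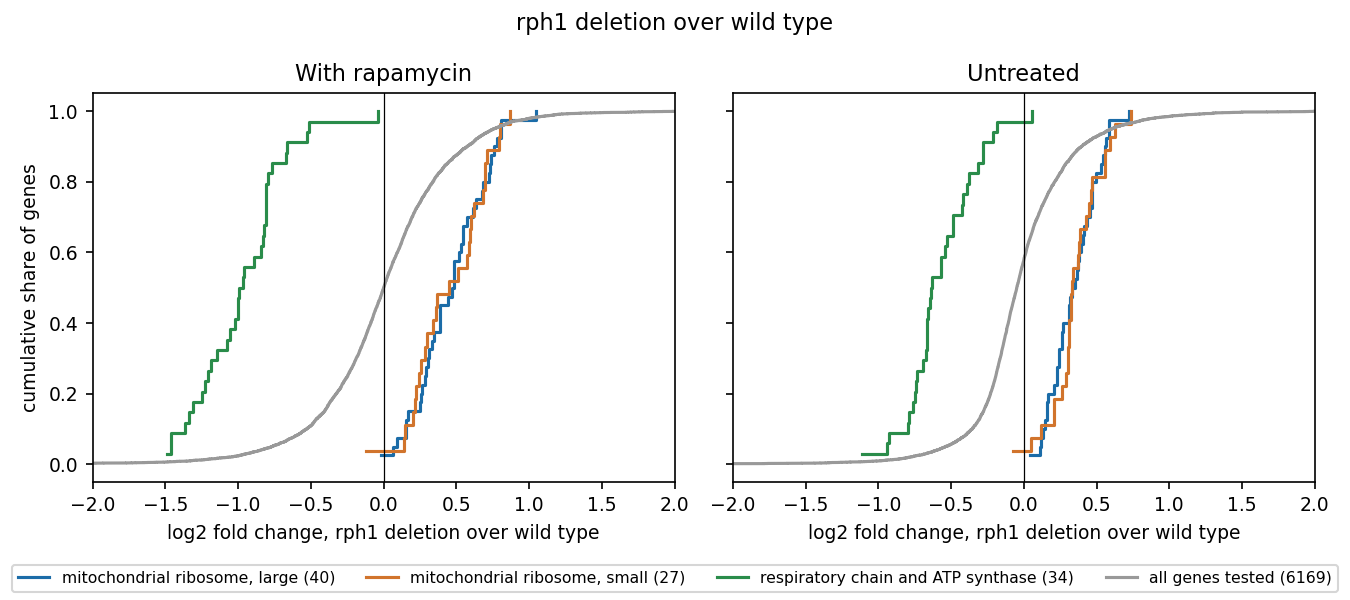
Cumulative share of genes by log2 fold change, rph1 deletion over wild type, with rapamycin on the left and untreated on the right, for the 40 large subunit genes, the 27 small subunit genes, 34 nuclear genes of the respiratory chain and ATP synthase, and all 6169 genes tested. The curves of both ribosomal subunits lie together, almost wholly to the right of 0, with medians of 0.48 and 0.45 with rapamycin and 0.34 and 0.33 untreated, while the respiratory chain curve lies to the left, with medians of -0.98 and -0.63.

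With the scaling used in the tests, rapamycin changed the mitochondrial ribosomal protein genes modestly and in both directions. As a share of all counted reads, with no scaling, the 69 genes were higher with rapamycin in both genotypes. They took 0.672% and 0.721% in the treated deletion, against 0.467% and 0.468% in the untreated deletion. In the wild type they took 0.523% and 0.516% treated, against 0.361% and 0.341% untreated. The sizes below thus depend on the scaling, and single genes were not tested without it. In the deletion, 28 of the 69 genes rose and 4 fell with rapamycin, where 28.6% of all genes tested rose and 28.7% fell, and the median log2 fold change, rapamycin over untreated, was 0.22, against -0.01 for all genes. In the wild type, 27 rose and 13 fell, where 34.8% of all genes tested rose and 33.9% fell, and the median was 0.15, against 0.02 for all genes. Leaving out any 1 library gave wild-type medians of 0.06, without replicate 2 of the untreated wild type, to 0.21, without replicate 2 of the treated wild type. The large subunit had 14 genes higher and 2 lower in the deletion and 12 higher and 8 lower in the wild type, with medians of 0.21 and 0.11. The small subunit had 13 higher and 2 lower in the deletion and 13 higher and 5 lower in the wild type, with medians of 0.26 and 0.24. Both treated libraries lay above both untreated libraries for 48 genes and below for 8 in the deletion, where 40.7% and 41% of all genes did so, and for 34 and 21 genes in the wild type, where 42.6% and 40.9% did so. A change of more than 2-fold was fitted for 1 of the 69 genes in the deletion and 2 in the wild type, against 603 genes up and 512 down in the deletion and 919 up and 898 down in the wild type over all genes tested.

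Of the large subunit genes that rose with rapamycin, MRPL16 (chromosome II, 146187 to 146885, plus strand), of the universal L16 family, had 104 and 108 CPM in the treated deletion, against 58.2 and 60.3 CPM in the untreated deletion. In the wild type it had 87.5 and 89.6 CPM with rapamycin, against 57.5 and 50.7 CPM untreated. Treated and untreated libraries did not overlap in either genotype, and the log2 fold changes were 0.84 ± 0.09 in the deletion (adjusted p = 0.000136) and 0.71 ± 0.09 in the wild type (adjusted p = 0.000175). MRPL10, of the L15 family, rose by 0.76 ± 0.10 in the deletion and 0.69 ± 0.10 in the wild type. MRPL25 and MRPL28 rose in the deletion by 0.63 ± 0.10 and 0.53 ± 0.12, and MRPL36, of the L31 family, rose in the wild type by 0.59 ± 0.09. MRPL51 rose by 0.59 ± 0.21 in the deletion (adjusted p = 0.0450) and 0.77 ± 0.22 in the wild type (adjusted p = 0.0141) from at most 102 reads a library. The deletion call was lost with DESeq2 (adjusted p = 0.0765), with TMM computed without cytosolic ribosomal protein and snoRNA genes (adjusted p = 0.0507), with no filter on low counts (adjusted p = 0.0505) and in 5 of the 8 fits that left out 1 library. The wild-type call was lost without replicate 2 of the treated wild type (adjusted p = 0.0587) or replicate 1 of the untreated wild type (adjusted p = 0.0741).

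Of the small subunit genes that rose with rapamycin, RSM18 (chromosome V, 253971 to 254387, minus strand) had 89.1 and 95.9 CPM in the treated deletion, against 53.5 and 60.7 CPM in the untreated deletion. In the wild type it had 104 and 97.2 CPM with rapamycin, against 63.2 and 57.2 CPM untreated. The treated libraries lay above the untreated ones in both genotypes, by 0.70 ± 0.10 in the deletion (adjusted p = 0.000684) and 0.74 ± 0.10 in the wild type (adjusted p = 0.000286). RSM19 rose by 0.81 ± 0.09 in the wild type, MRPS12 by 0.52 ± 0.11 in the deletion and 0.64 ± 0.12 in the wild type, and MRPS18 by 0.59 ± 0.07 in the wild type. RSM7, of the S7 family, and MRP21, of the S21 family, rose in the deletion by 0.58 ± 0.13 and 0.54 ± 0.11.

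The largest rise with rapamycin was that of MRP8 (chromosome XI, 178515 to 179174, plus strand), with 373 and 347 CPM in the treated deletion, against 200 and 153 CPM in the untreated deletion, and 527 and 411 CPM in the treated wild type, against 197 and 121 CPM in the untreated wild type. Its replicates were widely spaced but did not overlap between treatments, and the log2 fold changes were 1.03 ± 0.24 in the deletion (adjusted p = 0.00692) and 1.56 ± 0.24 in the wild type (adjusted p = 0.000612).

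Genes that fell with rapamycin were led by RSM26 (chromosome X, 618234 to 619034, plus strand), a small subunit protein that, like MRP1, resembles manganese superoxide dismutase. It had 57.2 and 60.0 CPM in the treated deletion, against 89.8 and 87.1 CPM in the untreated deletion, and 36.5 and 35.7 CPM in the treated wild type, against 70.6 and 72.2 CPM in the untreated wild type. The groups were all separate, with log2 fold changes of -0.59 ± 0.08 in the deletion (adjusted p = 0.000421) and -0.98 ± 0.08 in the wild type (adjusted p = 1.62e-05). MRPL17, MRPL19 and MRP4 were the other genes that fell in both genotypes, by 0.36, 0.51 and 0.33 in log2 in the deletion and by 0.76, 0.37 and 0.53 in the wild type. Leaving out 1 library ended the deletion call of MRPL17 in 6 of 8 fits, all but those without an untreated wild-type library, with adjusted p of 0.0505 to 0.167. It ended that of MRPL19 without either treated deletion library (adjusted p = 0.0545 and 0.0590) and that of MRP4 without replicate 2 of the treated deletion (adjusted p = 0.0819) or replicate 1 of the untreated deletion (adjusted p = 0.0669). The wild-type call of MRPL19 was lost without replicate 2 of the treated wild type, at -0.18 and an adjusted p of 0.230, and with adjusted p of 0.0652 to 0.0895 without either treated deletion library, without replicate 1 of the untreated wild type or with only the 4 wild-type libraries. MRPL4 fell by 0.71 ± 0.17, MRPL1 by 0.50 ± 0.09, MRP13 by 0.43 ± 0.13, MRPL11 by 0.41 ± 0.10, MRPL3 by 0.38 ± 0.11 and MRPL35 by 0.29 ± 0.10 in the wild type. In the deletion the log2 fold changes of these 6 genes were -0.14, -0.02, 0.11, -0.09, -0.12 and 0.23 and did not pass the test. Without replicate 1 of the treated wild type, MRP13 and MRPL3 had -0.27 and -0.24 and were no longer called (adjusted p = 0.141 and 0.128), nor was MRP13 without replicate 2 (adjusted p = 0.110) or MRPL3 without replicate 1 (adjusted p = 0.0649) of the untreated wild type. The call of MRPL35 was lost in 5 of the 8 fits that left out 1 library and with only the 4 wild-type libraries (adjusted p = 0.0736 to 0.175), down to -0.16 without replicate 1 of the untreated wild type. The other genes that fell in the wild type were MRPL7, MRPS28 and RSM24.

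The rapamycin comparisons within the deletion and within the wild type share no library either. Of the genes that rose, 23 were called in both, 82.1% of the 28 in the deletion and 85.2% of the 27 in the wild type, and 4 were called lower in both, all of the 4 in the deletion and 30.8% of the 13 in the wild type. Over all genes tested 1555 rose in both, 88.0% of 1767 in the deletion and 72.5% of 2145 in the wild type, and 1547 fell in both, 87.3% of 1772 and 73.9% of 2092. No gene of the 69 was called in opposite directions. The number that fell in the wild type was 7 without replicate 1 of the treated wild type. It was 8 without either library of the treated deletion, without replicate 1 of the untreated wild type, or with only the 4 wild-type libraries in the fit. In the deletion, the number that rose was 17 without replicate 2 of the treated deletion and 16 without replicate 2 of the untreated deletion. The number that fell in the deletion was 2, 1 and 2 without replicate 1 of the treated, replicate 2 of the treated and replicate 1 of the untreated deletion.

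**Figure D4:**
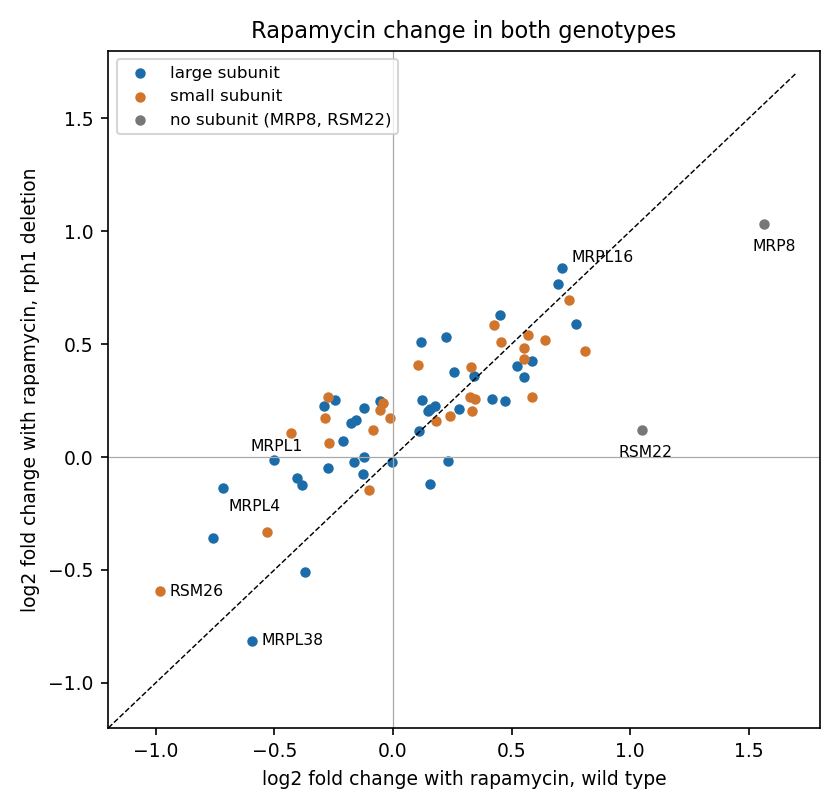
Log2 fold change with rapamycin, rph1 deletion on the vertical axis and wild type on the horizontal axis, for the 69 genes, coloured by subunit; the diagonal marks equal change. RSM22 and MRP8 lie below the diagonal at 0.12 and 1.03 in the deletion against 1.05 and 1.56 in the wild type, and MRPL1 and MRPL35 lie above it.

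The test of the difference between the rapamycin changes, deletion minus wild type, called 3 of the 69 genes, 2 positive and 1 negative, where 7.04% of all genes tested were called positive and 6.08% negative. The median interaction was 0.07 for the 69 genes and 0.01 for all genes. MRPL35 had an interaction of 0.52 ± 0.14 (adjusted p = 0.0486), with 94.6 and 93.8 CPM in the treated deletion, against 83.5 and 77.4 CPM in the untreated deletion, and 55.5 and 56.0 CPM in the treated wild type, against 74.1 and 62.4 CPM in the untreated wild type. MRPL1 had 0.49 ± 0.13 (adjusted p = 0.0454), with 84.2 and 82.7 CPM in the treated deletion, against 85.4 and 83.2 CPM in the untreated deletion, and 46.7 and 48.8 CPM in the treated wild type, against 72.3 and 62.8 CPM in the untreated wild type. Both genes fell with rapamycin in the wild type, where the call of MRPL35 was lost in 5 of the 8 fits that left out 1 library, and did not pass the test in the deletion. Both interaction calls were lost in 7 of the 8 fits that left out 1 library, with values of 0.39 to 0.57 for MRPL35 and 0.38 to 0.51 for MRPL1. Without replicate 2 of the untreated wild type 6 genes were positive, and without any other single library none was.

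RSM22 had an interaction of -0.93 ± 0.20 (adjusted p = 0.0243). It had 57.4 and 67.9 CPM in the treated deletion, against 51.8 and 63.7 CPM in the untreated deletion, and 90.1 and 103 CPM in the treated wild type, against 43.0 and 50.1 CPM in the untreated wild type. The treated wild type stood above all other libraries, and the rapamycin change was 0.12 ± 0.14 in the deletion (adjusted p = 0.496) and 1.05 ± 0.14 in the wild type (adjusted p = 0.000303). The interaction did not pass without replicate 1 of the treated deletion (-0.82, adjusted p = 0.0927), replicate 2 of the treated wild type (-0.85, adjusted p = 0.0732) or replicate 2 of the untreated deletion (-0.78, adjusted p = 0.0672), and 2 genes were negative without replicate 1 of the untreated wild type.

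**Figure D5:**
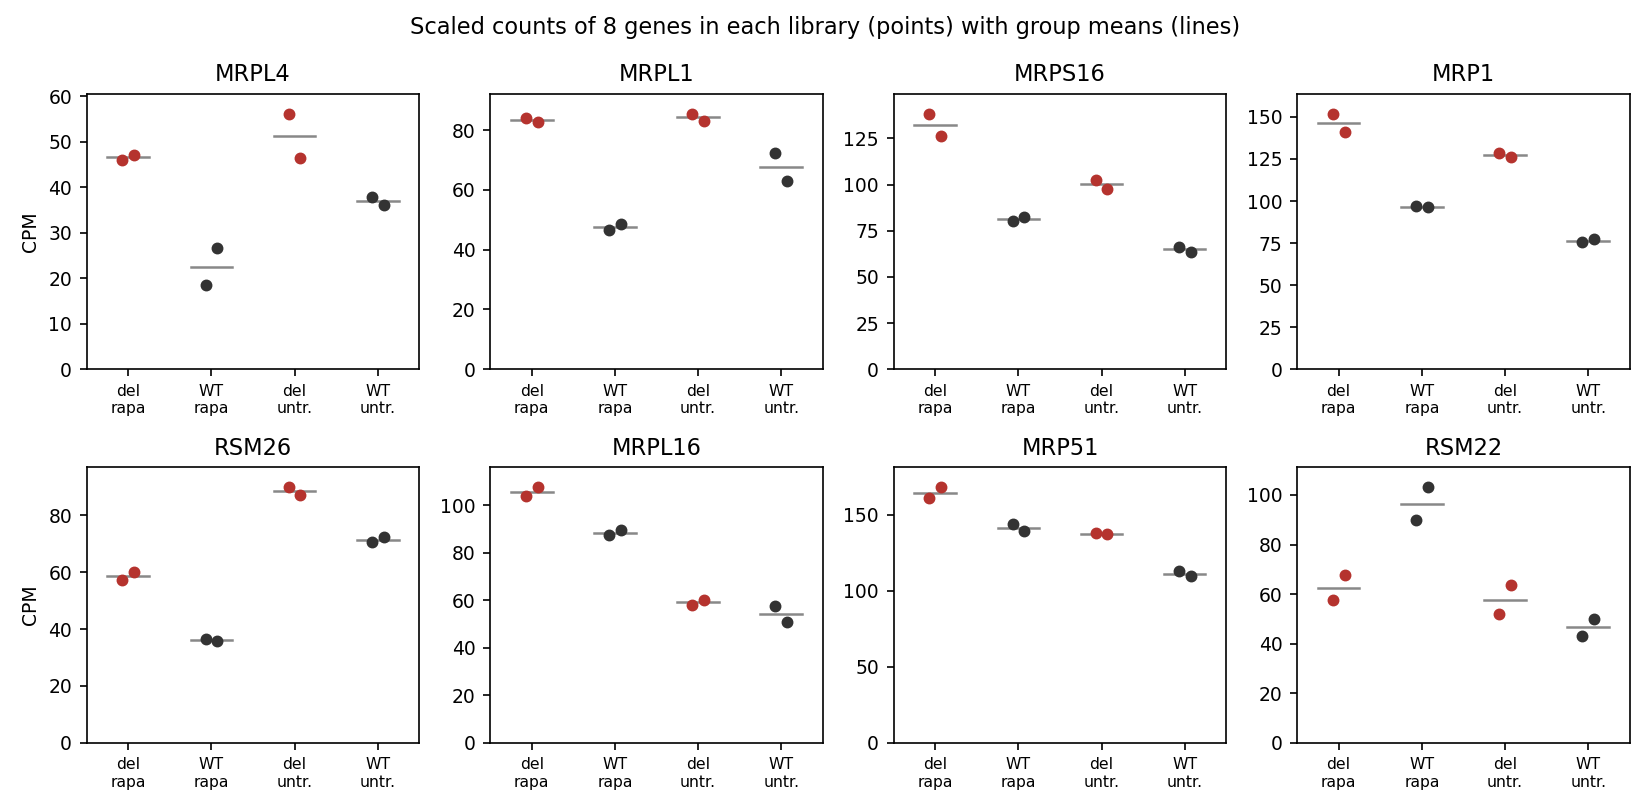
CPM of MRPL4, MRPL1, MRPS16, MRP1, RSM26, MRPL16, MRP51 and RSM22 in each of the 8 libraries, 1 panel a gene, with the 4 groups along the horizontal axis; each point is 1 library, red for the deletion and black for the wild type, and the lines are group means. RSM22 is highest in the treated wild type at 90.1 and 103 CPM, and MRP1 is higher in the deletion than in the wild type with either treatment.

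Values of the 69 genes are also given by gene span, as a description with no test. The 34 genes with a span below the median of 660 bp had a median log2 fold change with rapamycin of 0.33 in the wild type, with 19 higher and 1 lower, and the 35 others had -0.08, with 8 higher and 12 lower. Of all protein-coding genes tested, 45.0% of those below that span were higher and 21.7% lower, and 33.2% of the longer ones were higher and 37.2% lower. For the deletion against the wild type with rapamycin the order was turned round. The short genes had a median of 0.32 with 17 higher, and the long genes 0.60 with 28 higher. Of the protein-coding genes, 10.1% of the short and 16.1% of the long were higher. This comparison and that of rapamycin in the wild type share the treated wild-type libraries, with opposite sign. A trend with span in those libraries alone would give values of opposite sign, so the reversal is not a separate observation. The comparison of rapamycin in the deletion holds no wild-type library. There the short genes had a median of 0.27, with 19 higher and 1 lower, and the long genes 0.17, with 9 higher and 3 lower. Of the protein-coding genes, 34.2% of the short and 28.4% of the long were higher there. Which group the trend with span came from was not tested. Spearman's rho between span and fold change over the 69 genes was -0.39 for rapamycin in the wild type and 0.42 for the deletion with rapamycin, against -0.14 and 0.05 over 5753 protein-coding genes. For rapamycin in the deletion it was -0.26 over the 69 genes and -0.10 over the protein-coding genes. For the untreated deletion it was -0.10 over the 69 genes and -0.13 over the protein-coding genes. These are descriptions across genes, which share libraries and are not replicates, and short genes also had higher levels per kilobase (rho = -0.50 over the 69 genes).

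The question of whether Rph1 was found at these genes was put to the authors' deposited FLAG-Rph1 lists. With rapamycin, 1 of the 69 genes was listed, or 1.45%, against 9.51% of the 5917 protein-coding genes of the gene table. Untreated, 0 of the 69 genes were listed, against 5.83% of protein-coding genes. The cytosolic ribosomal protein genes, by contrast, had 70 of 138 listed with rapamycin and 135 of 138 untreated. The listed gene was MRP51 (chromosome XVI, 326628 to 327662, plus strand), a small subunit protein linked to translation of certain mitochondrial mRNAs. The authors' deposited table gives it a fold enrichment of 12.2, which ranks 621 among 705 entries and lies below the list's median of 25.3. Its convergent neighbour IDI1, 201 bp away, carries the same value, so the value cannot be assigned to either gene. What control the fold is relative to, and whether replicates were pooled, is not given in the sources used here.

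In the RNA, MRP51 had 161 and 168 CPM in the deletion with rapamycin, against 144 and 139 CPM in the wild type with rapamycin, and 138 and 137 CPM in the untreated deletion, against 113 and 109 CPM in the untreated wild type. The deletion libraries were the higher ones in each treatment, but the log2 fold changes of 0.22 ± 0.08 with rapamycin (adjusted p = 0.0757) and 0.31 ± 0.08 untreated (adjusted p = 0.0591) did not pass the test. Rapamycin raised it by 0.26 ± 0.08 in the deletion (adjusted p = 0.0244) and 0.35 ± 0.08 in the wild type (adjusted p = 0.00491).

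Listed genes lay next to 11 of the 69 genes with rapamycin and 7 untreated, which is 15.9% and 10.1%, close to the 17.3% and 10.7% of all 5917 protein-coding genes. Of the 38 mitochondrial ribosomal protein genes that share an upstream region with a divergent partner, 0 had a listed partner with rapamycin and 1 untreated, against 8.12% and 5.55% of the 3028 protein-coding genes with such a partner. That gene was MRPL16, 458 bp from URA7, which codes for CTP synthase and has a fold of 15 in the authors' deposited table. Several neighbours were cytosolic ribosomal protein genes, with RPS27A beside RSM22 and RPS3 beside MRPL22 on both deposited lists, and RPL11B beside MRP13, RPS0A beside RSM27 and RPL36A beside MRPL24 on the untreated list. The fold of RPS27A was 32.9 with rapamycin and 61.3 untreated in the authors' deposited table, and that of RPS3 was 19.0 and 116.

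Of 12 genes for mitochondrial ribosomal proteins with other names, 7 were higher in the deletion with rapamycin and 4 in the untreated deletion, none was lower in either, and the medians were 0.42 and 0.37. Over all genes tested, the shares to set beside this list and the next were 14.4% higher and 13.5% lower with rapamycin. Untreated they were 4.88% higher and 2.53% lower. NAM9, a small subunit protein of the S4 family, rose by 0.80 ± 0.08 with rapamycin (adjusted p = 0.000887) and 0.31 ± 0.07 untreated (adjusted p = 0.0465) in the deletion over the wild type. RML2, of the L2 family, rose by 0.61 ± 0.10 and 0.53 ± 0.10, and PET123 of the small subunit by 0.59 ± 0.09 and 0.42 ± 0.09. EHD3, also an enzyme of valine breakdown, rose by 0.42 ± 0.08 and 0.43 ± 0.08. With rapamycin over untreated, 3 rose and none fell in the deletion, and 5 rose and 2 fell in the wild type. Over all genes tested 28.6% rose and 28.7% fell in the deletion, and 34.8% and 33.9% in the wild type. The numbers that rose were thus near the shares over all genes. Interactions were called positive for 7.04% of all genes tested and negative for 6.08%. PPE1 rose by 0.72 ± 0.13 in the deletion and 1.06 ± 0.13 in the wild type. NAM9 was the gene with an interaction, at 0.49 ± 0.11 (adjusted p = 0.0241).

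Factors that work with the ribosome were also measured. Of 11 mitochondrial translation factors, 5 were higher and 1 lower in the deletion with rapamycin, and none passed in the untreated deletion, where 4 had an unadjusted p under 0.05. The ribosome recycling factor RRF1 rose by 0.76 ± 0.12 (adjusted p = 0.00382), the initiation factor AIM23 by 0.63 ± 0.12 (adjusted p = 0.00867) and the release factor MRF1 by 0.62 ± 0.14 (adjusted p = 0.0142). MEF2, which acts in ribosome recycling, fell by 0.96 ± 0.15 (adjusted p = 0.00362). Over all genes tested, 14.4% were higher and 13.5% lower in the deletion with rapamycin, and 4.88% and 2.53% untreated. Of 10 genes for assembly and RNA modification, 4 were higher in the deletion with rapamycin with a median of 0.50. None passed untreated, where 2 had an unadjusted p under 0.05. The 4 higher genes were the methyltransferase OMS1 at 0.53 ± 0.08, the tRNA pseudouridine synthase PUS4 at 0.55 ± 0.08, the helicase MRH4 at 0.66 ± 0.16 and MTF2 at 0.58 ± 0.14. PUS4 fell with rapamycin by 0.96 ± 0.08 in the deletion and 1.72 ± 0.09 in the wild type, with an interaction of 0.76 ± 0.12 (adjusted p = 0.00988).

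Of 22 activators and membrane receptors of mitochondrial translation, 6 were higher in the deletion with rapamycin and 1 in the untreated deletion, and none was lower. The untreated count was near the share over all genes tested, 4.88%, and the share with rapamycin was 14.4%. MSS51, which activates translation of COX1 mRNA, rose by 0.99 ± 0.14 with rapamycin (adjusted p = 0.00225) and 0.64 ± 0.13 untreated (adjusted p = 0.0309). The membrane insertase OXA1 rose by 0.75 ± 0.11 with rapamycin. CBP3 and CBP6, partners in cytochrome b synthesis, rose by 0.55 ± 0.07 and 0.77 ± 0.13. Of 19 genes of mitochondrial protein import, 8 were higher and none lower in the deletion with rapamycin. Over all genes tested 14.4% were higher and 13.5% lower. The import genes were led by TIM23 at 1.11 ± 0.12 (adjusted p = 0.00111) and TOM20 at 0.70 ± 0.10. In the untreated deletion 2 were higher, where 4.88% of all genes tested were. These were the processing peptidase subunit MAS1 at 0.42 ± 0.09 and TOM6 at 0.37 ± 0.09. Import genes fell with rapamycin, 12 of 19 in the deletion and 10 of 19 in the wild type, against 1 that rose in each. Over all genes tested 28.7% fell and 28.6% rose in the deletion, and 33.9% fell and 34.8% rose in the wild type.

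Genes of mitochondrial DNA upkeep and transcription showed no common direction, with 2 of 9 higher and 3 lower in the deletion with rapamycin. Over all genes tested 14.4% were higher and 13.5% lower with rapamycin, and 4.88% and 2.53% untreated. RPM2, the protein subunit of mitochondrial RNase P, fell by 0.71 ± 0.11 in the deletion with rapamycin and by 1.27 ± 0.12 in the untreated deletion (adjusted p = 0.00263), the sole call of the list without rapamycin. Among 10 regulators, HAP4, the activating subunit of the Hap complex of respiratory genes, had an interaction of 0.92 ± 0.22 (adjusted p = 0.0328). HAP4 rose by 1.19 ± 0.16 with rapamycin in the deletion. None of the 10 passed in the untreated deletion, where 5 had an unadjusted p under 0.05, and PUF3 stood at 0.39 ± 0.14 there (adjusted p = 0.130). With rapamycin, 2 of the 10 were higher in the deletion and 3 lower, where 14.4% and 13.5% of all genes tested were. PUF3 had a log2 fold change over the wild type of 0.47 ± 0.13 (adjusted p = 0.0347) and HAP5 of 0.44 ± 0.11 (adjusted p = 0.0179). The lower genes were RTG3 at -0.69 ± 0.09 (adjusted p = 0.00168), RTG2 at -0.34 ± 0.09 (adjusted p = 0.0213) and HAP3 at -0.39 ± 0.10 (adjusted p = 0.0275).

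The nuclear genes of the respiratory chain and ATP synthase, some of whose complexes hold subunits made on mitochondrial ribosomes, went the other way between the genotypes. Of 34 such genes, 33 were lower in the deletion with rapamycin and 25 in the untreated deletion, and none was higher in either. The medians were -0.98 and -0.63. Over all genes tested 13.5% were lower and 14.4% higher with rapamycin, and 2.53% and 4.88% untreated. Relative to the wild type, with rapamycin, the cytochrome oxidase subunit genes COX6 and COX5A fell by 1.49 ± 0.10 (adjusted p = 0.000584) and 1.21 ± 0.10 (adjusted p = 0.000613). Untreated, COX5A and COX4 fell by 1.11 ± 0.10 (adjusted p = 0.00200) and 0.93 ± 0.10 (adjusted p = 0.00386). With rapamycin over untreated, 33 of 34 rose in the deletion with a median of 0.83 and all 34 rose in the wild type with a median of 1.33, against medians of 0.22 and 0.15 for the 69 mitochondrial ribosomal protein genes. Over all genes tested 28.6% rose with rapamycin in the deletion and 34.8% in the wild type. The interaction called 10 of the 34 negative and none positive, where 6.08% and 7.04% of all genes tested were. These 34 values and those of the 69 genes come from the same libraries and the same fit.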

How the data were processed

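The authors deposited unnormalised read counts for 7036 entries in each of 8 RNA libraries. The submitters' processing notes name Bowtie2 2.3.4.3, DESeq2 1.24.0, MACS2 2.2.1, featureCounts 1.6.3, STAR 2.5.3a and Trimmomatic 0.38, with the build sacCer3; what each tool was used for, the gene annotation and any strand setting are not given in the sources used here. The deposited FLAG-Rph1 lists hold, per the file headers, a fold enrichment per gene. ChIP libraries of polymerase II were not analysed here.

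Symbols, coordinates and spans came from the RefSeq table of R64, which matched 5956 entries by systematic name. Counts were filtered with filterByExpr (minimum count 10), scaled by TMM and fitted with edgeR 4.0.16 (R 4.3.3; glmQLFit, glmQLFTest) in 1 model of 8 libraries with a mean per group, so all groups share 1 estimate of the spread. P-values were adjusted by Benjamini-Hochberg over 6169 genes within each comparison and called under 0.05; SE is the absolute log2 fold change over the square root of F. CPM uses the scaled library size, and CPM per kilobase divides by gene span. This scaling cannot see a change in all RNA of a cell.

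Labels do not say that replicates were separate cultures, so p-values measure only the spread between libraries, which may be technical. Replicate numbers are not stated to mark a shared day or culture and were not used to pair libraries. Members and gene lists were chosen with earlier results of these data known. Members named per comparison are the 10 called with the largest change in each direction, those listed for FLAG-Rph1, the 5 highest and 5 lowest in level and the one with the largest replicate difference; up to 3 called genes with the smallest p are named per list, and further named genes were chosen after their values were seen. Alternatives were RLE scaling, TMM without cytosolic ribosomal protein and snoRNA genes, DESeq2 1.42.0, no filter, only the 4 libraries compared, a replicate block and leaving out each library.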

Additional observations from a re-analysis of the deposited data

Results flagged for a closer look

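For 3 of the 69 genes the rapamycin change differed between the genotypes by the interaction test in edgeR. MRPL35 had an interaction log2 value of 0.52, MRPL1 one of 0.49 and RSM22 one of -0.93, the log2 rapamycin response of deletion cells less that of wild-type cells. The rapamycin changes behind them were 0.23 in the deletion and -0.29 in the wild type for MRPL35, -0.02 and -0.50 for MRPL1, and 0.12 and 1.05 for RSM22. The share of genes called in each direction over all genes tested was 7.04% for positive and 6.08% for negative interactions. The 69 genes, with 2 positive and 1 negative, lay below both shares. Each of the 3 calls was lost in some of the fits that left out 1 library. The values there were 0.39 to 0.57 for MRPL35, 0.38 to 0.51 for MRPL1 and -0.85 to -0.78 for RSM22.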

How the results depend on the processing

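No recomputed value of a called gene and no median fold change over the 69 genes changed sign under the alternatives run; with rapamycin in the wild type 37 to 43 of the 69 values were positive with 1 library left out. With the replicate number as a block, 38 genes were higher in the untreated deletion against 23, with 17.9% of all genes called, and the interaction called 8 positive and 3 negative against 2 and 1, with 26.7% of all genes called; the block gave 52 higher with rapamycin, and 34 higher and 4 lower with rapamycin in the deletion and 29 and 15 in the wild type. Replicate differences correlated at 0.66 between the untreated deletion and the untreated wild type and at 0.23 to 0.40 between the other pairs. The replicate numbers are not known to pair libraries. With only the 4 libraries compared, 0 genes were called in the untreated deletion and 8 were lower with rapamycin in the wild type. The interaction called 4 genes positive with DESeq2, 4 with TMM without cytosolic ribosomal protein and snoRNA genes, and 1 with no filter. No gene stayed on the FLAG-Rph1 list with rapamycin at or above the list's median fold (0). The cause was not tested. Leaving out 1 library gave 1 to 25 genes higher in the untreated deletion, 29 to 49 higher and 0 to 1 lower in the deletion with rapamycin, 16 to 30 higher and 1 to 4 lower with rapamycin in the deletion, 23 to 26 and 7 to 13 in the wild type, and 0 to 6 positive and 0 to 2 negative interactions; where a group kept 1 library, it is assumed to vary like the others. With plain library totals the median levels of the large subunit were 141, 103, 92.1 and 71.7 CPM per kilobase in the treated deletion, treated wild type, untreated deletion and untreated wild type, and 155, 110, 106 and 79.4 for the small subunit, which puts the treated wild type above the untreated deletion. The planned promoter motif count was not run, since no promoter sequence was at hand.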
